A study of Arabidopsis thaliana with 4 samples.

Results

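The genes described here are 9 tandem genes of Arabidopsis thaliana chromosome 2, AT2G29290 to AT2G29370, that encode tropinone reductase-like short-chain dehydrogenases. They were defined by locus as a run of neighbours, and the run was picked from earlier results of the same comparison, in which AT2G29290 was among the largest falls. The differences between genotypes given for these genes are therefore a description and are not tested here. Of the 9 genes, 8 had a probe set that the platform annotation pairs with a single gene, out of 13286 genes that did on these arrays. The exception was AT2G29350 (SAG13, senescence-associated gene 13), which is not analysed here, and no member had a second such probe set.

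Short-chain dehydrogenases are a large family of enzymes that use NAD(P)H to reduce, or its oxidised form to oxidise, small molecules. The tropinone reductases for which these genes are named work in the tropane alkaloid pathway of the nightshade family, where they reduce the ketone tropinone to an alcohol. Arabidopsis carries many relatives of them, several side by side. SAG13 of this run is widely used as a marker of leaf senescence and cell death. AT2G29330 carries the symbol TRI, for tropinone reductase, in the reference table, and the other measured members carry no symbol of their own there.

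RNA of expanded leaves from short-day plants was hybridised to 4 single-colour arrays. Columbia, the reference accession, and jaw-D each had 2 arrays. The jaw-D mutant overexpresses the microRNA miR319a from an activation-tagged copy of its own gene. The microRNA directs cleavage of transcripts of a group of TCP transcription factors. Age, pooling and the number of plants behind an array are not given in the labels, so the spread between replicates may be technical.

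Signals were on a common scale, with median signals from 74.6 to 77.2 over the arrays and 22746 probe sets that were not array controls. Dim probe sets, those below a signal of 16, made up 17.8% and 18.4% of the Columbia arrays and 22.3% and 21.7% of the jaw-D arrays. The leaf markers RCA and LHCB4.1, the 2 of 6 that were named, summed to between 17984 and 23859 on each array. The 3 root markers together summed to between 70.2 and 92.0, the 1 named trichome marker of 3, TRY, read 44.5 to 76.1, and none of the 3 flower markers was named. Fewer cells that express a gene and less RNA per cell cannot be told apart in such whole-leaf samples.

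The run was divided in jaw-D leaves. The first 2 genes in locus order, AT2G29290 and AT2G29300, were several-fold dimmer in jaw-D. The next 2, AT2G29310 and AT2G29320, and further along AT2G29340, were somewhat brighter, by 1.26-fold to 1.45-fold on the log2(signal + 16) scale. AT2G29330, AT2G29360 and AT2G29370 had lower mean signals in jaw-D by a modest amount. In the reference gene order no other gene lies between the 9 members.

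In Columbia, AT2G29290 gave signals of 998.4 and 955.4, and in jaw-D it gave 282.3 and 245.2. Both jaw-D signals were thus far below both Columbia signals, and the 2 arrays of a genotype lay close together. The means were 977 ± 30.4 and 264 ± 26.2 (SD, n = 2 arrays each), a ratio of 3.70. On the log2(signal + 16) scale AT2G29290 fell by 1.83 (SE 0.15). Taking each jaw-D array against each Columbia array, the difference of AT2G29290 ran from -1.96 to -1.70. It was the 32nd lowest of all probe sets.

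AT2G29300, the next gene, read 86.6 and 127.9 in Columbia and 37.3 and 13.7 in jaw-D. The groups did not overlap, but the jaw-D arrays differed between themselves by more than the Columbia arrays did as a ratio. Its means were 107 ± 29.2 and 25.5 ± 16.7 (SD, n = 2 arrays each), a ratio of 4.21. The log2 difference of AT2G29300 was -1.61 (SE 0.32), and over array pairs it ran from -2.28 to -0.94. One jaw-D signal of AT2G29300 lay under the lower quartile of that array, 18.9, and the size of its difference moved with the pseudocount, from -2.16 at 1 to -0.94 at 64. Dim probe sets were also more frequent on the jaw-D arrays, and after quantile normalization, which makes the distributions of the arrays equal, the difference of AT2G29300 was -1.54.

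**Figure D1:**
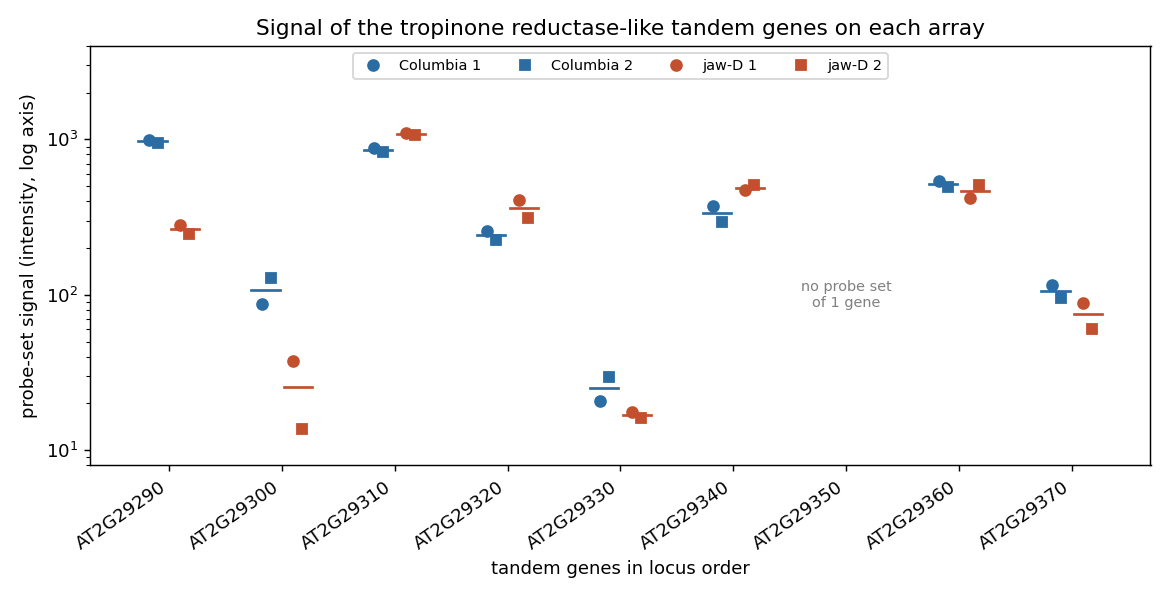
Signal of each tandem gene in locus order (x axis) on every array (y axis, intensity on a log axis). Circles are arrays 1 and squares arrays 2, blue for Columbia and orange for jaw-D, and short lines are the genotype means. AT2G29290 and AT2G29300 show both jaw-D points well below the Columbia points, while AT2G29310, AT2G29320 and AT2G29340 show them slightly above.

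The third gene of the run, AT2G29310, went the other way. Its signals were 887.3 and 829.0 in Columbia and 1103.3 and 1069.7 in jaw-D, so both jaw-D arrays were higher. The means of AT2G29310 were 858 ± 41.2 and 1087 ± 23.8 (SD, n = 2 arrays each), and the log2 difference was 0.34 (SE 0.15). Between the neighbours AT2G29300 and AT2G29310 the log2 difference thus changed by 1.95, the widest step between measured neighbours in the run. The steps between AT2G29290 and AT2G29300 and between AT2G29310 and AT2G29320 were 0.22 and 0.20. The sizes of both steps that involve AT2G29300 depend on the pseudocount. From a pseudocount of 1 to 64 the difference of AT2G29300 moved from -2.16 to -0.94, and that of AT2G29290 from -1.89 to -1.67. With a pseudocount of 1 AT2G29300 thus fell by more than AT2G29290, so the step between them also changed direction.

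AT2G29320 read 259.2 and 224.7 in Columbia, and 408.9 and 310.8 in jaw-D. Its jaw-D arrays were both higher and stood further apart than the Columbia arrays. The log2 difference of AT2G29320 was 0.53 (SE 0.19), with a range of 0.25 to 0.82 over array pairs. AT2G29340 read 372.2 and 295.2 in Columbia and 471.7 and 505.6 in jaw-D, again with both jaw-D arrays higher. Its log2 difference was 0.54 (SE 0.17), and the range over array pairs was 0.33 to 0.75. The differences of AT2G29320 and AT2G29340 were nearly equal in size, and they ranked 771 and 755 from the highest of all probe sets.

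AT2G29330 (TRI), which lies between AT2G29320 and AT2G29340, was dim on every array. Its signals were 20.6 and 29.4 in Columbia and 17.6 and 16 in jaw-D, around the lower quartile of each array, which was 22.9 to 23.2 in Columbia and 18.6 to 18.9 in jaw-D. The jaw-D signals were lower by a few units only. The log2 difference of AT2G29330 was -0.31 (SE 0.17) and was -0.14 after quantile normalization. It was the member whose difference shrank most under that normalization.

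The last measured members were AT2G29360 and AT2G29370. AT2G29360 read 539.4 and 490.5 in Columbia and 418.1 and 512.3 in jaw-D, and it was the 1 measured member whose genotypes overlapped. Its log2 difference was -0.15 (SE 0.17), and without jaw-D array 1 it was -0.01. AT2G29370 read 115.2 and 95.7 in Columbia and 88.8 and 60.5 in jaw-D. Its jaw-D signals were both lower, although the higher of them came close to the lower Columbia signal. The log2 difference of AT2G29370 was -0.44 (SE 0.21), and it was -0.21 without jaw-D array 2.

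**Figure D2:**
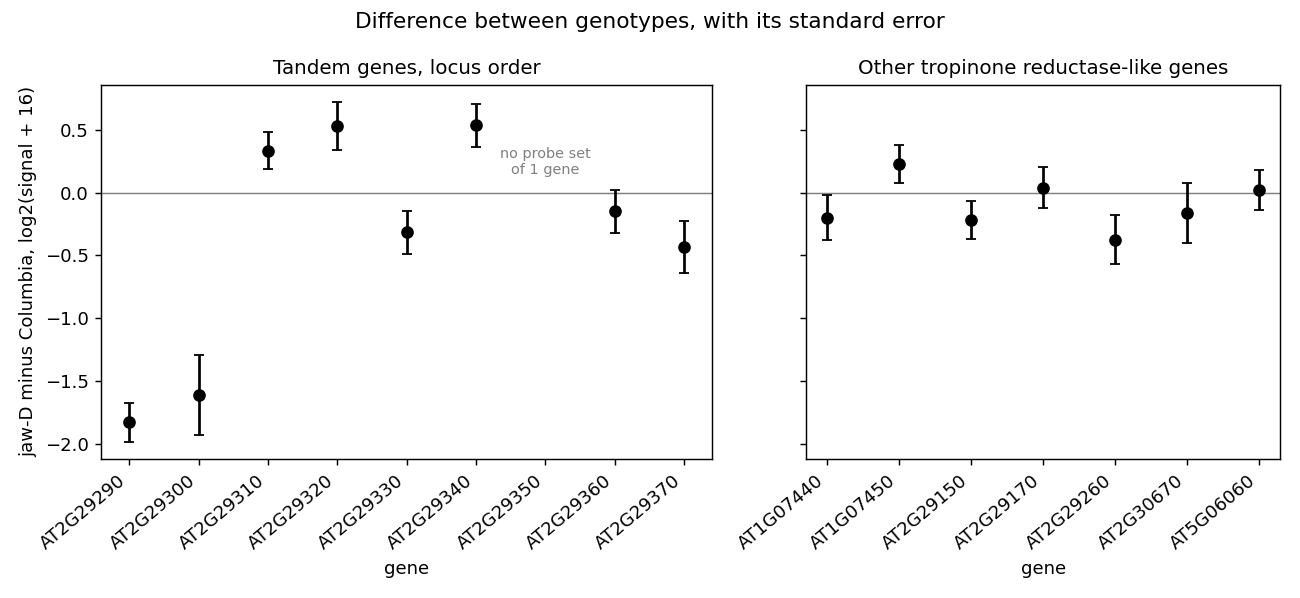
Difference between genotypes (y axis, jaw-D minus Columbia on the log2(signal + 16) scale) for the tandem genes in locus order and for the other tropinone reductase-like genes (x axis); points are fitted differences and bars their standard errors. AT2G29290 and AT2G29300 lie at -1.83 and -1.61, and every other gene shown lies between -0.44 and 0.54.

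Counted together, 3 measured members had a higher mean log2 signal in jaw-D and 5 a lower one. The median log2 difference of the 8 was -0.23, and that of all probe sets was -0.04. The per-array median over the members had a pooled SD of 0.19 within genotypes. Over the 6 members in the brighter part of the table, which leaves out AT2G29300 and AT2G29330, the median turned to 0.09, with 3 higher and 3 lower. The genotypes did not overlap for 7 of the 8 members, while this held for 44.0% of all probe sets. Of these, 4 were lower on both jaw-D arrays and 3 higher, against 26.5% and 17.5% of all probe sets. Across all probe sets 0.189% passed limma at a Benjamini-Hochberg adjusted p under 0.05, and 1 of the 8 members did, AT2G29290. That gene led to the choice of the run and is also among the members without overlap. Nothing is therefore read from this count or from the counts of genotypes that did not overlap. With a pseudocount of 1, or without any 1 of the arrays, no probe set passed and neither did AT2G29290, whose difference stayed between -1.93 and -1.67 over all settings run.

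**Figure D3:**
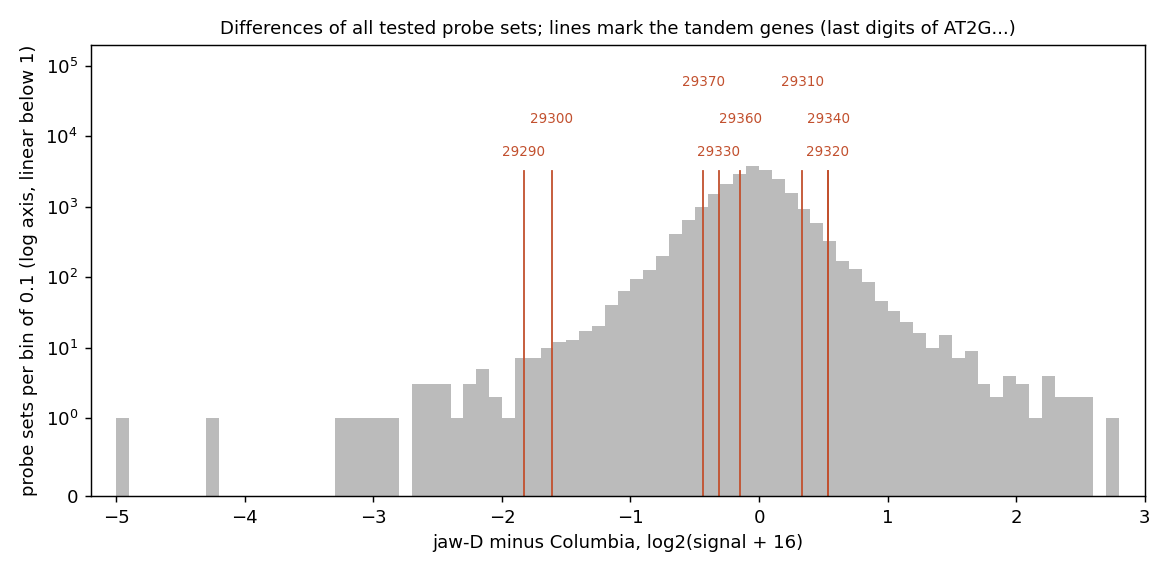
Number of probe sets (y axis, log axis that is linear below 1) by their difference between genotypes (x axis, jaw-D minus Columbia in bins of 0.1 log2 units), with orange lines at the tandem genes. AT2G29290 and AT2G29300 lie in the thin lower tail and the remaining members between -0.44 and 0.54. Of these, AT2G29320 and AT2G29340 rank 771 and 755 from the highest of all probe sets.

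None of the tropinone reductase-like genes outside the run differed by as much as AT2G29290 and AT2G29300. The other measured members, from -0.44 to 0.54, also had smaller differences. Only 2 of the outside genes reached the median mean signal, and differences of dim probe sets are understated on this scale. All 7 of those listed were measured. By limma 0 of them passed over the whole table, and 0 had an unadjusted p under 0.05. Of all 22746 probe sets, 43 passed and 2957 had an unadjusted p under 0.05. Counts of 0 among 7 genes are therefore not read as a result. Their log2 differences ran from -0.38 to 0.23 with a median of -0.16, which was -0.002 after quantile normalization. Whether they differ from the run was not tested, because the run was chosen on this contrast.

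The nearest relative to the run by gene order was AT2G29260, which is separated from AT2G29290 by 2 annotated pseudogenes and 1 short gene model. It read 43.2 and 51.9 in Columbia and 40.3 and 26.4 in jaw-D. The log2 difference of AT2G29260 was -0.38, with a 95% interval of -0.86 to 0.11 and an adjusted p of 0.491 by limma. Both pseudogenes, AT2G29270 and AT2G29280, are annotated as transcribed. AT2G29280 overlaps AT2G29290 in the reference table, and its part in the signal of AT2G29290 was not tested.

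Further relatives on the same chromosome were dim. AT2G29150 read 21.7 and 18.9 in Columbia and 16.9 and 13.7 in jaw-D, with a log2 difference of -0.21 (SE 0.15). AT2G29170 read 36.8 and 47.3 against 42.3 and 44.5, a difference of 0.04 (SE 0.16). AT2G30670 read 38.9 and 19.3 against 22.5 and 24.2, a difference of -0.16 (SE 0.24). The genotypes overlapped for AT2G29170 and AT2G30670, and both AT2G29150 signals of jaw-D were below those of Columbia.

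Relatives on other chromosomes also showed small differences. AT1G07440 read 1035.5 and 1034.7 in Columbia and 1025.2 and 790.6 in jaw-D, so that its log2 difference of -0.20 (95% interval -0.64 to 0.24) came mostly from jaw-D array 2. AT5G06060 read 712.8 and 628.2 against 641.9 and 716.7, with overlapping genotypes and a difference of 0.02 (95% interval -0.37 to 0.41). AT1G07450, the neighbour of AT1G07440, read 48.4 and 54.1 against 65.7 and 59.7 and had a difference of 0.23 (SE 0.15). The 1 named gene among 10 others that the reference calls short-chain dehydrogenases was AT3G12800 (SDRB). It had 2 probe sets, and the 1 with the higher mean signal is given here. That probe set read 608.5 and 631.7 against 616.2 and 574.4, a log2 difference of -0.06 (adjusted p = 0.916 by limma).

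Few genes around the run were named. Within 15 places on either side lie 28 genes other than the members and the relatives listed above. Of these, 2 had a probe set of 1 gene, AT2G29180 and AT2G29210. AT2G29210 read 435.3 and 426.8 in Columbia and 628.6 and 468.7 in jaw-D, a log2 difference of 0.32 (SE 0.19, adjusted p = 0.534 by limma). AT2G29180 read 360.2 and 355.0 against 389.4 and 397.7, a log2 difference of 0.13 (adjusted p = 0.759 by limma). Neither passed, and for each of them the jaw-D signals lay above those of Columbia. The 7 tau glutathione transferase genes that follow the run, GSTU1 to GSTU7, which encode enzymes that join glutathione to reactive compounds, are not analysed here.

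Since SAG13 of this run is a senescence and stress marker, genes of those programmes were listed beside it. Of 17 leaf senescence genes 4 were named and 0 passed limma, with 1 at an unadjusted p under 0.05. Over all 22746 probe sets 0.189% passed and 2957 had an unadjusted p under 0.05, so nothing is read from these counts. WRKY6 (AT1G62300), a transcription factor of senescing leaves, read 15.8 and 8.4 in Columbia and 24.1 and 48.1 in jaw-D, a log2 difference of 0.86 (adjusted p = 0.293 by limma). SAG101 (AT5G14930), a lipase-like immune and senescence regulator, had -0.32 (adjusted p = 0.558), and SAG29 (AT5G13170), a sugar transporter, had 0.74 (adjusted p = 0.571) with overlapping genotypes. The remaining gene, WRKY53 (AT4G23810), read 84.1 and 140.6 in Columbia and 79.7 and 110.3 in jaw-D, a log2 difference of -0.19 with overlapping genotypes. The median of the 4 was 0.28, beside -0.04 for all probe sets, with 2 genes higher and 2 lower. Both Columbia signals of WRKY6 were below 16, and SAG29 read 39.2 and 10.5 in Columbia and 77 and 28 in jaw-D. From a pseudocount of 1 to 64 the difference of WRKY6 moved from 1.48 to 0.39 and that of SAG29 from 1.15 to 0.38. In the brighter part of the table only WRKY53 was left, so the list shows no common direction.

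For the salicylate pathway, 1 of 16 listed genes was named. AT3G48080, a close homologue of the immune regulator EDS1, read 122.6 and 129.5 in Columbia and 28.8 and 21.6 in jaw-D. It fell by 1.79 (SE 0.16, adjusted p = 0.0343 by limma), and this call was lost, like every other, with a pseudocount of 1 or without any 1 of the arrays. The oxylipin and xenobiotic response list also had 1 named gene, of 11, the tau glutathione transferase gene GSTU25 (AT1G17180). Its signals, 4.2 and 14.9 against 7.1 and 1.0, lay at the bottom of the range.

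The genes whose signals varied over the 4 arrays most like those of AT2G29290 were sought among 5985 single-gene probe sets of the brighter part of the table, those not below the median mean signal. Likeness was the Euclidean distance between log2 values after each gene's mean was taken off. The nearest was AT5G59670, which encodes a receptor kinase with leucine-rich repeats, at a distance of 0.18, which read 344.7 and 338.7 in Columbia and 101.1 and 92.8 in jaw-D. SWEET13 (AT5G50800), a sucrose transporter gene, followed at 0.24, with 140.3 and 156.7 against 40.7 and 32.5. The serine carboxypeptidase-like gene scpl46 (AT2G33530) came next at 0.28, with 528.8 and 501.8 against 163.8 and 161.0. With so few arrays a small distance means little more than a genotype difference of similar size, which was -1.66, -1.65 and -1.57 for these genes, and no other tandem gene was among them. AT2G29300 was not in that search, because its mean signal lay below the median.

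**Figure D4:**
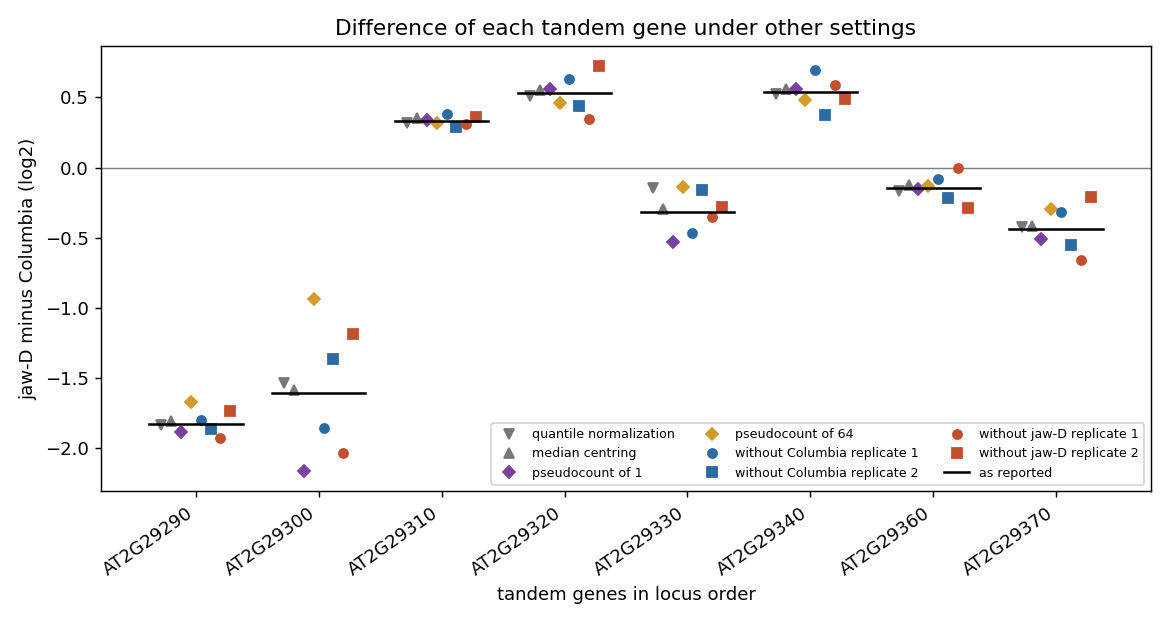
Difference of each measured tandem gene (x axis, locus order) between genotypes (y axis, jaw-D minus Columbia in log2 units) as reported (black lines) and under other settings (symbols). Each of the 8 genes keeps its sign under the settings shown, AT2G29360 only just at -0.01 without jaw-D array 1. For genes whose genotypes do not overlap, pseudocounts and left-out arrays cannot turn the sign. AT2G29300 spreads most, from -2.16 to -0.94.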

How the data were processed

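The values deposited by the authors are linear intensities, 1 signal for each probe set, as judged from their range: 0 or positive, with at most 1 decimal. The mean of each array without its lowest and highest 2% was 200.0, so the arrays had been scaled before deposit. For software and summary method the sources used here give nothing, and no detection calls were used. Genotypes came from the sample descriptions, and replicates were numbered in accession order. No column was left unused.

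Probe sets were named through the platform annotation and, by gene identifier, the TAIR10.1 RefSeq table, which served only for names and gene order. Of 22746 probe sets, 13513 had 1 gene, 503 several, and 8730 were not named. Differences of log2(signal + 16), which understate changes of dim probe sets, were fitted with limma 3.58.1 in R 4.3.3 (lmFit and eBayes, two-sided, Benjamini-Hochberg over 22746 probe sets, threshold 0.05), and the fit was tested on simulated data. The residual degrees of freedom were 2. An exact permutation test of 2 against 2 arrays cannot go below 0.333. The number of arrays limits the precision.

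Members and lists were chosen with earlier results of these data known. The genes named are all members, all tropinone reductase-like genes elsewhere, and up to 3 genes of each other list by smallest unadjusted p. The 3 genes most like AT2G29290 were also named, as was WRKY53, the remaining senescence gene. The like search for AT2G29350 had no probe set to start from. A planned list of Rossmann-fold genes matched 0 genes in the reference table, and genes it names short-chain dehydrogenases replaced it. A planned search of promoters was not run, for want of sequence. Alternatives were quantile normalization, median centring, other pseudocounts, a filter, trended and robust moderation, a replicate block and leaving out each array. Figures were drawn with matplotlib 3.10.9.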

Additional observations from a re-analysis of the deposited data

How the results depend on the processing

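All 8 measured members kept the sign of their difference under each setting in which they were tested. The filter on brighter probe sets left out AT2G29300 and AT2G29330. For the 7 members whose genotypes did not overlap, other pseudocounts or leaving out an array could not turn the sign. The moderation settings and the replicate block leave the difference as it is. The overlapping member, AT2G29360, ran from -0.36 to 0.06 over array pairs. AT2G29290 ranged from -1.93 to -1.67, AT2G29310 from 0.29 to 0.38, AT2G29320 from 0.34 to 0.72, AT2G29340 from 0.38 to 0.70 and AT2G29370 from -0.66 to -0.21. The members' median of -0.23 was 0.0941 under that filter, where 6 members remained, and ran from -0.24 to -0.18 without 1 array. The 43 calls over all probe sets (8 higher, 35 lower) became 291 under the filter (117 higher, 174 lower), where fewer probe sets were tested, and 103 with an intensity trend (35 higher, 68 lower). They became 0 by limma with a pseudocount of 1, with 2538 at an unadjusted p under 0.05, and 0 without any 1 array, with 1978 to 2492. There the lone array is assumed to vary like the other genotype. The replicate block gave 66 calls, with the same median of -0.23 for the members. The deviations of arrays with the same number correlated at -0.07, and the labels do not say that a number pairs arrays. AT2G29290 was called under every setting except the pseudocount of 1 and the arrays left out. SWEET13 was not called after quantile normalization (-1.59, adjusted p = 0.0538 by limma). No member had a second probe set to set beside the first. Without detection calls, signals near the lower quartile, such as those of AT2G29330, have no bound.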
